A study of Mus musculus with 12 samples.

Results

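Expression of 10 genes that regulate or report the ATF4 and CHOP arm of the stress response was measured in primary mouse hepatocytes exposed to benzbromarone (BBR), a uricosuric drug for gout, with or without oleic acid (OA), a monounsaturated fatty acid used to load cultured hepatocytes with lipid. The 10 genes were the table entries named Atf3, Atf4, Atf5, Ddit3, Trib3, Ppp1r15a, Chac1, Vldlr, Nupr1 and Cebpb. They were chosen by name as parts of this response, with earlier results of these data already known, as were the gene lists below. Their contrast with all genes tested is therefore a description and not independent support. They were 10 of 22471 features, and each had 1 entry. All 10 passed the filter on low counts in every comparison. The 12 RNA-seq libraries formed 4 groups of 3: untreated hepatocytes (control), OA, BBR, and BBR with OA (BBR+OA). The study's methods describe hepatocytes isolated by collagenase perfusion and a Percoll step from young male C57BL/6J mice, with OA bound to albumin. Every group was therefore wild-type hepatocytes in culture at a single dose and time. Whether the groups shared a cell preparation was not stated. The series' design text counts the 3 libraries of a group as biological replicates and calls OA a high-fat diet, but no animal was fed a diet here. Whether the replicates were separate mice or separate wells was not stated, and p-values measure the spread between these libraries.

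The integrated stress response lowers general protein synthesis when a kinase phosphorylates the initiation factor eIF2alpha, while the mRNA of Atf4 is translated better. ATF4 is a basic leucine zipper (bZIP) transcription factor that switches on genes of amino acid uptake and synthesis and further regulators, among them Atf5, Atf3 and Ddit3, the gene for CHOP. Because ATF4 is controlled largely at translation, the mRNA level of Atf4 is not a measure of its protein. In liver this response is known for its part in amino acid shortage, in stress of the endoplasmic reticulum (ER) and in mitochondrial stress. Trib3 encodes a pseudokinase that feeds back on ATF4, Ppp1r15a encodes GADD34, which directs phosphatase 1 to eIF2alpha, Chac1 encodes an enzyme that degrades glutathione, and Vldlr encodes a lipoprotein receptor.

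The sequences below are shown because ATF4 binds DNA together with C/EBP proteins at a short composite element, and the genes differ in whether they carry its letters near the start of transcription. RefSeq windows of 300 bases (GRCm38.p6, from 250 bases before to 50 after a start) were searched on both strands for TGATGNAAN, the composite C/EBP-ATF element. The letters occurred in 3.954% of all 32851 windows. All 10 genes had a window, 12 windows in all. Of these 12 windows, 5 had a match, from 5 genes: Atf3, Trib3, Chac1, Vldlr and Nupr1. Each of the 5 matches read as the reverse complement on the gene's own strand. The matched letters are in capitals, 10 bases are shown on each side, and each sequence runs 5′ to 3′ on the strand of its gene.
Atf3, chr1:191183426-191183454, minus strand, match at -111: ccttctcgcaCTTGCATCAccaagtccgc
Trib3, chr2:152344029-152344057, minus strand, match at 13 after the start: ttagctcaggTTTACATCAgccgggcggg
Chac1, chr2:119351038-119351066, plus strand, match at -194: cttccctgccGTTGCATCActcctgccag
Vldlr, second window, chr19:27216809-27216837, plus strand, match at -201: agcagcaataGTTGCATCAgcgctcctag
Nupr1, chr7:126625563-126625591, minus strand, match at -111: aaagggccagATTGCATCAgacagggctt

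Chac1 and Vldlr carried the same 9 letters, at -194 and at -201 from the RefSeq starts of those windows. For Vldlr this was the start of its second window, and the match lay inside the annotated gene. The second window of Vldlr and the window of Nupr1 began inside an annotated exon. Trib3 was the one whose letters lay after the RefSeq start of its window. The part of the window before it meets an annotated exon of the gene is printed for Chac1 and Atf3. Chac1 had the largest OA change of the 10 genes, and Atf3 was the one gene called in all 4 comparisons of groups. The Chac1 stretch precedes the annotated gene, while the Atf3 stretch lies inside the annotated gene (chr1:191170296-191218039, minus strand). The element is again in capitals.
Chac1, chr2:119350992-119351228, plus strand: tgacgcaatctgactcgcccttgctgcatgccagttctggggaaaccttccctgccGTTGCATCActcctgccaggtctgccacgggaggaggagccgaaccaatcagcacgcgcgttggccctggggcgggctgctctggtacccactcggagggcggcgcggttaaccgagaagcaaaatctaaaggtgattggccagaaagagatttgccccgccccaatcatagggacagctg
Atf3, chr1:191183341-191183583, minus strand: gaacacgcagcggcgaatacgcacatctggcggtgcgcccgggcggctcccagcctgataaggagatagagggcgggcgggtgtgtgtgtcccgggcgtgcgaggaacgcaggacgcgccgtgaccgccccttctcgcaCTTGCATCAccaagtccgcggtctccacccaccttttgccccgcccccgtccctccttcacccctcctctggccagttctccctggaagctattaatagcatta

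Further motifs were searched in the same way. The cAMP response element TGACGTCA, present in 1.79% of windows, occurred in the window of Ppp1r15a alone, 12 bases before its start (chr7:45526263-45526290, minus strand), and is shown in capitals.
Ppp1r15a: gcctctccggTGACGTCAgcacagcgcc
The C/EBP palindrome TTGCGCAA, in 0.1826% of windows, occurred in none of the 12 windows. The CCAAT box CCAAT, in 37.41% of windows, occurred in 6 of the 12, from 6 of the 10 genes. A match describes the letters in these windows and no binding was measured. The 10 genes are protein-coding and their positions on GRCm38 are given where each is described below.

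Total counts ranged from 15485508 to 23668379 per library, so that 1 count was worth 0.0423 to 0.0646 CPM (counts scaled to the library total), and the least abundant of the 10 genes, Nupr1, was well above the 3-count floor of 0.127 to 0.194 CPM in each library. Levels below are CPM after trimmed mean of M values (TMM) scaling, given for replicates 1, 2 and 3 in that order. The labels name the tissue as liver. Summed markers of hepatocytes (7 of 8 listed were in the files, led by Alb) came to between 37541 and 46898 CPM in every library. Markers of macrophages (11 genes, 101 to 183 CPM), endothelium (7 genes, 55.2 to 69.9 CPM), stellate cells (8 genes, 26.0 to 32.1 CPM) and bile ducts (5 genes, 199 to 722 CPM, mostly Spp1) were lower, and lymphoid and neutrophil markers reached at most 0.253 CPM, with Cd3e, Ms4a1 and Nkg7 at 0 throughout. Mitochondrially encoded genes took 6.01 to 7.55% of counts.

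Per unit of transcript length, Atf5 and Atf4 were the most abundant of the 10 genes in control cells. The deposited FPKM (fragments scaled to transcript length and library size) averaged 140 ± 7.58 (SD, n = 3) for Atf5 and 133 ± 1.03 for Atf4, which overlapped between libraries and stood above the other genes in each library. Cebpb at 36.1 ± 12.3 FPKM and Trib3 at 31.3 ± 0.776 FPKM followed and could not be ordered, since the libraries of Cebpb ran from 23.9 to 48.5 FPKM. Ppp1r15a (16.3 ± 1.29 FPKM) and Atf3 (16.2 ± 0.285 FPKM) overlapped each other. Ddit3 (14.4 ± 1.36 FPKM) overlapped Chac1 (13.05 ± 1.83 FPKM), which overlapped Vldlr (11.5 ± 2.34 FPKM). Nupr1, at 7.95 ± 0.962 FPKM, was below all of the others in every control library. In the OA group Atf4 (197 ± 2.16 FPKM) was above Atf5 (180.3 ± 7.02 FPKM) in every library, and Chac1 (27.9 ± 2.39 FPKM) overlapped Cebpb and Atf3.

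**Figure D1:**
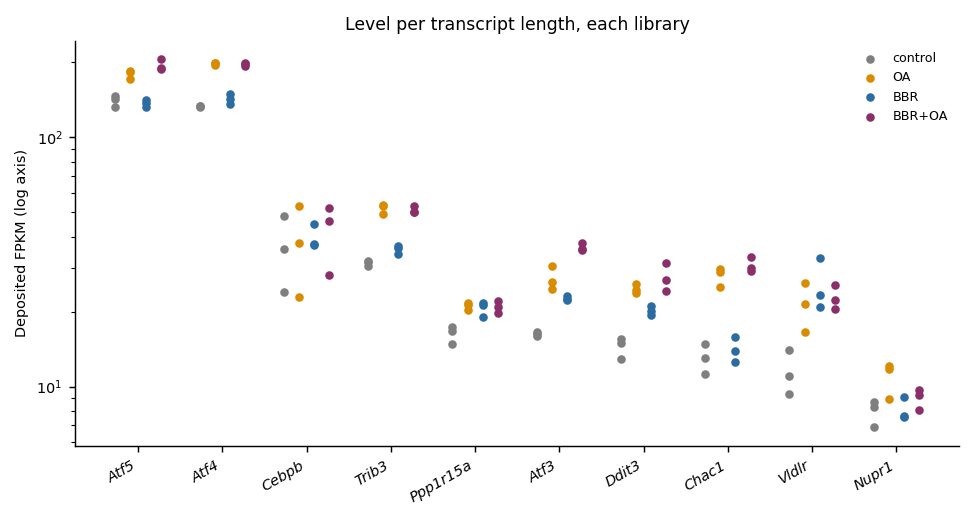
Deposited FPKM of each gene (log axis) in every library, with genes ordered by their control mean and points coloured by group (3 libraries each). Atf5 and Atf4 lie above 100 FPKM in all 12 libraries, and the points of Cebpb are spread within groups.

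OA raised the mRNA of most of these genes. Against control cells, 9 of the 10 genes were called higher in OA cells and 0 were called lower (edgeR quasi-likelihood test, Benjamini-Hochberg adjusted p under 0.05 over all genes tested), where 21.3% of all 12418 genes tested were called higher and 21.5% lower. With upper quartile scaling the calls over all genes split into 2077 higher and 3216 lower, in place of 2643 and 2669, and the calls on the 10 genes did not change. The median log2 fold change of the 10 genes was 0.68, against -0.0060 over all genes tested. Chac1 rose the most, 2.20-fold, followed by Vldlr, 2.003-fold, and Cebpb was the one gene not called. In the presence of BBR, OA raised 6 of the 10 genes (BBR+OA against BBR cells) and lowered 0, where 20.1% of 12416 genes tested were called higher and 18.8% lower (2496 and 2330 genes, or 1976 and 2870 with upper quartile scaling). The median of the 10 genes was then 0.47 on the log2 scale. The 6 were Atf3, Atf4, Atf5, Ddit3, Trib3 and Chac1, while Vldlr, Ppp1r15a and Nupr1 were called without BBR and not with it. Whether that is a difference was tested as the interaction below. These 2 comparisons share no library.

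BBR without OA raised 5 of the 10 genes: Atf3, Ddit3, Trib3, Ppp1r15a and Vldlr. The background in BBR against control cells was 13.2% of 12555 genes called higher and 14.5% called lower, and 0 of the 10 were lower. Vldlr rose 2.30-fold and the other 4 by between 1.15-fold and 1.41-fold. Atf4 itself was not called (1.08-fold, adjusted p = 0.0746), nor was Chac1. The median log2 fold change of the 10 genes was 0.18, against -0.00085 over all genes tested. In the presence of OA, BBR raised 1 gene, Atf3, by 1.34-fold, and lowered 0, where 1.95% of 12278 genes were called higher and 2.63% lower. Atf3 was therefore the only one of the 10 genes higher after both BBR comparisons and both OA comparisons. OA against control and BBR against control share the control libraries, and OA against control and BBR+OA against OA share the OA libraries, so these changes are not independent of each other.

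**Figure D2:**
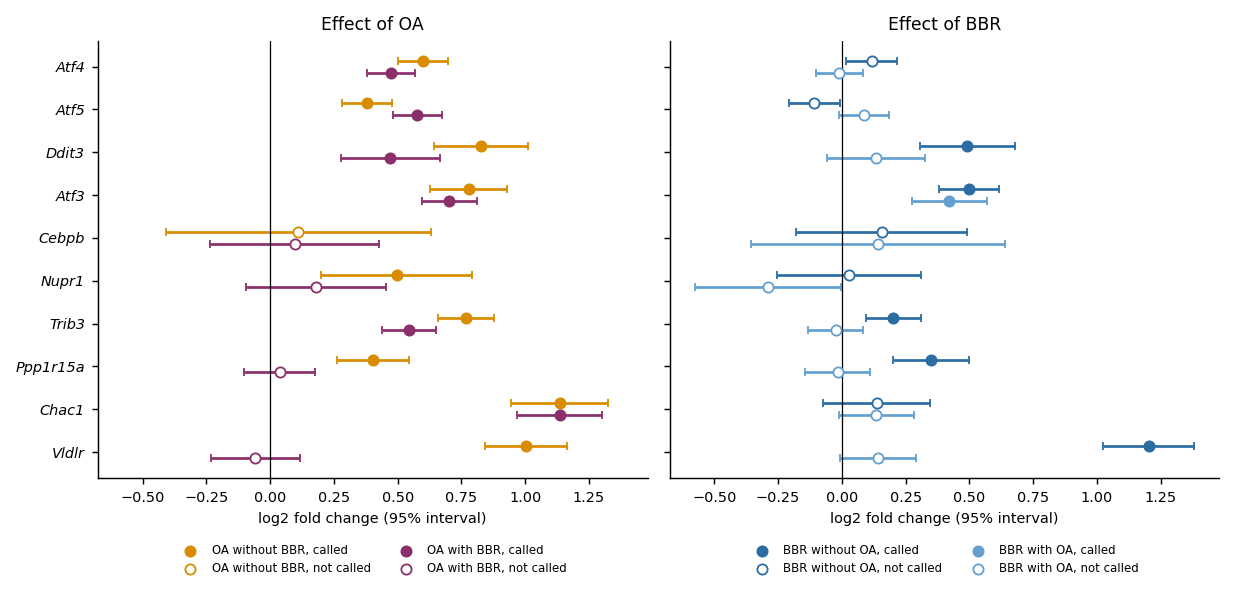
Fitted log2 fold change of each gene with its 95% interval, for the effect of OA (left) and of BBR (right), each with and without the other agent. Filled points passed adjusted p under 0.05. The OA effect on Chac1 is 1.14 with and without BBR, and Vldlr responds to each agent given alone, by 1.002 and 1.20.

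Whether the BBR effect itself differed between OA and control medium was tested as an interaction over all 12 libraries. Of the 10 genes, 2 had a lower BBR effect in OA (Vldlr and Ppp1r15a) and 1 had a higher one (Atf5), where 5.31% of 12742 genes tested were called lower and 6.87% higher. The difference for Vldlr was -1.05 on the log2 scale (SE 0.13, adjusted p = 4.22e-05). It was -0.36 for Ppp1r15a (SE 0.098, adjusted p = 0.0220) and 0.20 for Atf5 (SE 0.062, adjusted p = 0.0383). Neither of these last calls held without each library in turn: Ppp1r15a was lost without control replicate 1, BBR replicate 2 or BBR replicate 3 (adjusted p up to 0.0627), and Atf5 was lost in 9 of the 12 left-out fits (adjusted p up to 0.158) and with RLE scaling (adjusted p = 0.0550). Trib3 (-0.21, adjusted p = 0.0533) and Ddit3 (-0.35, adjusted p = 0.0907) did not pass. The call for Trib3 lay so near the threshold that it passed with another library scaling.

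**Figure D3:**
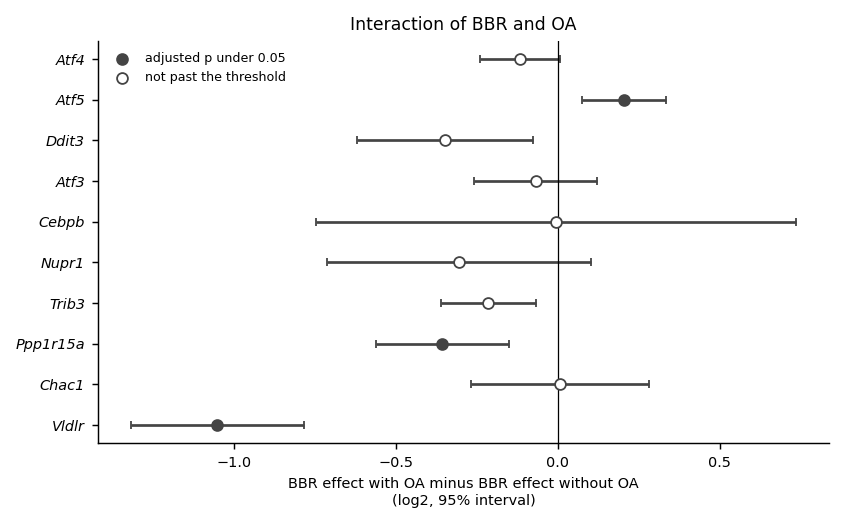
BBR effect in OA medium minus BBR effect in control medium for each gene, on the log2 scale with its 95% interval. Vldlr lies farthest from 0, at -1.05, and Chac1 and Cebpb lie near 0, the latter with the widest interval.

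Among the transcription factors, Atf4 (chr15:80255184-80257541) rose with OA and did not pass the test with BBR. Its level was 223, 228 and 230.1 CPM in control cells and 343, 343 and 341 CPM in OA cells. It was 234, 257 and 245 CPM in BBR cells and 343, 344 and 335 CPM in BBR+OA cells. Every library with OA was above every library without it, the OA and BBR+OA groups overlapped, and every BBR library was above every control library. The log2 fold change for OA was 0.60 (SE 0.045, adjusted p = 1.49e-07) without BBR and 0.47 (SE 0.043, adjusted p = 1.08e-06) with it. The BBR change without OA, 0.12 (95% interval 0.018 to 0.21, adjusted p = 0.0746), did not pass, but was called without BBR replicate 1 (adjusted p = 0.0335). With OA the BBR change was -0.011 (95% interval -0.10 to 0.081).

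Atf5 (chr7:44812256-44816658), a bZIP factor tied to the mitochondrial stress response, followed Atf4 under OA. It stood at 219.7, 231 and 227 CPM in control cells, 298, 291 and 289 CPM in OA cells, 201, 206 and 219 CPM in BBR cells and 304, 307 and 323 CPM in BBR+OA cells. The BBR libraries lay below all control libraries and the BBR+OA libraries above all OA libraries, so the sign of the BBR difference was opposite in the 2 media. Neither difference passed by itself (-0.11, adjusted p = 0.0978 without OA, and 0.086, adjusted p = 0.325 with OA), while the interaction did, as given above. The OA rise was 0.38 (SE 0.046, adjusted p = 1.55e-05) without BBR and 0.58 (SE 0.045, adjusted p = 2.28e-07) with it. Atf5 shares 82 exonic bases, 4.11% of its total, with Nup62 and Il4i1 on the other strand, and the strand setting of the counting was not given in the sources used here.

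Ddit3 (chr10:127290774-127296288), which encodes CHOP, a factor linked to cell death under lasting ER stress, rose with either agent. Its control level of 13.04, 12.8 and 10.99 CPM compared with 22.8, 21.1 and 21.0 CPM in OA, 17.1, 17.8 and 16.6 CPM in BBR and 22.7, 27.3 and 21.3 CPM in BBR+OA. The control libraries were the lowest, the BBR libraries were in between, and the OA and BBR+OA groups overlapped. BBR without OA gave 0.49 (SE 0.087, adjusted p = 4.90e-04) and OA without BBR gave 0.83 (SE 0.086, adjusted p = 3.29e-06). OA on top of BBR gave 0.47 (adjusted p = 8.92e-04) and BBR on top of OA 0.13 (95% interval -0.058 to 0.33, adjusted p = 0.463). Mars, the methionyl-tRNA synthetase gene on the other strand, shares 68 exonic bases with Ddit3 (3.97% of its exonic bases). Mars moved the opposite way in BBR cells (-0.34, adjusted p = 1.87e-04) and rose in OA cells (0.17, adjusted p = 0.0326).

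Atf3 (chr1:191170296-191218039), an immediate-early repressor and activator of stress genes, was stepwise higher across the groups. Control libraries had 31.5, 32.3 and 31.5 CPM, BBR libraries 45.4, 44.4 and 44.0 CPM, OA libraries 52.3, 60.6 and 49.6 CPM and BBR+OA libraries 70.9, 76.2 and 70.8 CPM. No group overlapped another. BBR raised Atf3 by 0.50 (SE 0.055, adjusted p = 5.15e-06) without OA and by 0.42 (SE 0.069, adjusted p = 0.00282) with it, and the difference between the 2 was -0.068 (95% interval -0.26 to 0.12, adjusted p = 0.688). OA raised it by 0.78 (SE 0.071, adjusted p = 1.01e-06) without BBR and by 0.70 (SE 0.050, adjusted p = 1.03e-07) with it.

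Cebpb was not called in any comparison. Cebpb (chr2:167688915-167690418), a gene of 1 exon, encodes C/EBPbeta, a DNA-binding partner of ATF4. It ranged from 35.2, 72.1 and 53.6 CPM in control cells to 34.6, 56.8 and 81.1 CPM in OA, 55.9, 55.5 and 67.2 CPM in BBR and 78.8, 42.7 and 69.7 CPM in BBR+OA cells. The highest library exceeded the lowest by 2.05-fold in control cells, 2.35-fold in OA and 1.85-fold in BBR+OA, more than any group difference, and all groups overlapped. The adjusted p between groups was 0.511 to 0.800, but the BBR change was called without control replicate 2 (0.42, adjusted p = 0.0270) and the OA change with BBR was called without BBR+OA replicate 2 (0.32, adjusted p = 0.00984). Of the exonic bases of Cebpb, 20.7% (312 bases) are shared with Tmem189 on the other strand, which rose in BBR cells by 0.55 (adjusted p = 2.56e-05).

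Nupr1 (chr7:126623249-126630861), a small chromatin-linked stress protein, had the lowest counts. Its levels were 5.57, 7.11 and 6.86 CPM in control cells, 7.41, 9.79 and 10.2 CPM in OA, 6.26, 7.47 and 6.24 CPM in BBR and 6.68, 8.14 and 7.74 CPM in BBR+OA cells. The OA libraries stood above the control libraries, and the other pairs of groups overlapped. The OA rise was 0.50 (SE 0.14, adjusted p = 0.00989) without BBR and 0.18 (95% interval -0.094 to 0.46, adjusted p = 0.290) with it. The difference between these, the interaction, was -0.31 and did not pass (adjusted p = 0.354).

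Of the effectors, Trib3 (chr2:152337422-152344032) had the profile nearest to that of Atf4. It was 60.2, 63.8 and 63.8 CPM in control cells, 108, 109 and 102 CPM in OA, 68.2, 72.6 and 74.3 CPM in BBR and 102, 109.6 and 102 CPM in BBR+OA cells. As for Atf4, the libraries with OA overlapped one another, those without OA lay below them, and every BBR library was above every control library. OA gave 0.77 (SE 0.051, adjusted p = 4.46e-08) without BBR and 0.54 (SE 0.049, adjusted p = 8.92e-07) with it, and BBR gave 0.20 (SE 0.051, adjusted p = 0.00771) without OA and -0.024 (95% interval -0.13 to 0.084) with it. The root mean square difference between the gene-centred log2(CPM + 1) profiles of Atf4 and Trib3 over 12 libraries was 0.073, the smallest among all pairs of the 10 genes.

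Ppp1r15a and Vldlr were each called higher after either agent, and no further rise was called after both. Ppp1r15a (chr7:45522916-45526268) had 34.4, 40.2 and 39.1 CPM in control cells, 47.8, 51.0 and 50.8 CPM in OA, 43.9, 50.02 and 50.7 CPM in BBR and 49.0, 52.6 and 46.5 CPM in BBR+OA cells. The 3 treated groups overlapped and all lay above the control libraries. OA gave 0.40 (SE 0.066, adjusted p = 2.09e-04) and BBR 0.35 (SE 0.070, adjusted p = 0.00138) against control. OA on top of BBR gave 0.038 (95% interval -0.10 to 0.18) and BBR on top of OA -0.017 (95% interval -0.15 to 0.11).

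Vldlr (chr19:27216484-27254231, 19 merged exons), which binds triglyceride-rich lipoproteins and is low in resting liver, showed the same pattern on a larger scale. Control libraries had 33.6, 40.1 and 38.2 CPM, OA libraries 70.8, 82.5 and 70.1 CPM, BBR libraries 73.6, 87.1 and 96.6 CPM and BBR+OA libraries 76.2, 88.7 and 82.1 CPM. The treated groups overlapped one another at about 2 times the control level. The rise was 1.002 for OA (SE 0.075, adjusted p = 1.42e-07) and 1.20 for BBR (SE 0.084, adjusted p = 5.22e-08). Adding OA to BBR gave -0.058 (95% interval -0.23 to 0.12) and adding BBR to OA gave 0.14 (95% interval -0.0075 to 0.29). The call for the interaction held in all 17 alternative fits. The summed macrophage markers were also highest in BBR cells, at 141 to 183 CPM against 101 to 120 CPM in control cells, with 1 of the 10 markers tested called higher and 1 lower. Summed endothelial markers were 66.8 to 69.9 CPM in BBR and 58.5 to 62.1 CPM in control cells (3 of 7 tested called higher, 0 lower), and bile duct markers 391 to 421 CPM and 589.8 to 722 CPM (3 of 4 higher, 1 lower). The part of these cells in the BBR results was not tested, and in bulk RNA more cells of a type and more RNA per cell cannot be told apart.

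Chac1 (chr2:119351229-119354381) rose with OA and was not called with BBR. Its levels were 23.8, 18.1 and 21.3 CPM in control cells, 48.8, 47.6 and 42.0 CPM in OA, 22.5, 20.5 and 25.9 CPM in BBR and 54.2, 49.8 and 47.9 CPM in BBR+OA cells. The control and BBR libraries overlapped, as did the OA and BBR+OA libraries, and no library crossed between these pairs. OA raised it by 1.14 without BBR (SE 0.089, adjusted p = 2.22e-07) and by 1.14 with BBR (SE 0.077, adjusted p = 6.27e-08). BBR gave 0.14 (95% interval -0.073 to 0.35, adjusted p = 0.337) without OA and 0.13 (95% interval -0.012 to 0.28, adjusted p = 0.309) with OA. The interaction was 0.0084 (95% interval -0.27 to 0.28).

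**Figure D4:**
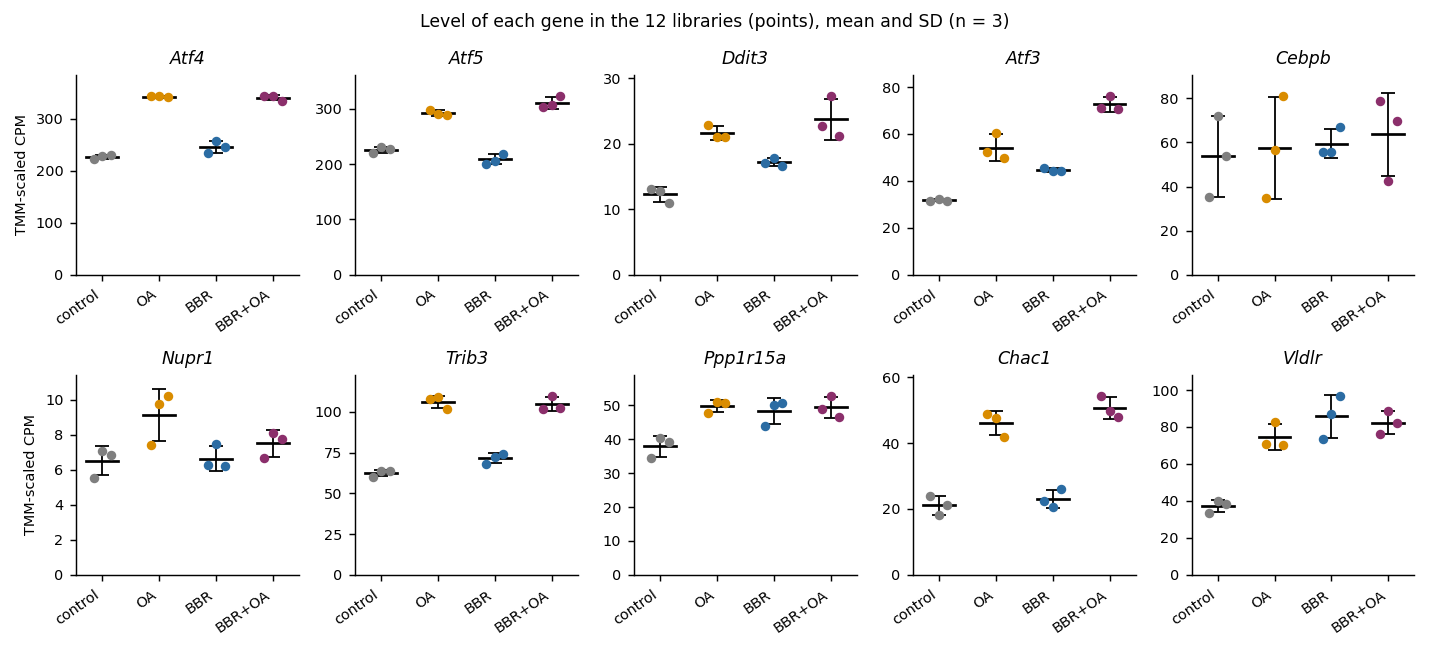
TMM-scaled CPM of each gene in every library (points), with the group mean and SD (bars, n = 3) and axes that start at 0. Atf3 forms 4 separate steps, Chac1 forms a lower band of 18.1 to 25.9 CPM and an upper one of 42.0 to 54.2 CPM, and the 3 treated groups of Vldlr lie together above control cells.

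Other targets of the integrated stress response, 32 genes outside the 10, most of them for amino acid synthesis, transport and tRNA charging, mostly rose with OA. In OA against control cells, 21.3% of all genes tested were called higher and 21.5% lower. Of the 32, 27 were called higher and 2 lower (Slc6a9 and Gdf15), with a median log2 fold change of 0.49. Setting aside genes that stayed below 5 CPM in both groups, the 3 with the largest changes were Slc7a1, a transporter of basic amino acids (1.45, adjusted p = 1.14e-07), Cth, which makes cysteine (1.40, adjusted p = 5.84e-10), and Psat1 of serine synthesis (1.23, adjusted p = 1.32e-08). With BBR present, OA raised 24 and lowered 2, with a median of 0.46, and under the same limit the largest changes were those of Slc7a1 (1.33), Cth (1.28) and Gpt2, an alanine aminotransferase (1.22). BBR without OA raised 4 and lowered 9, with a median of -0.030 (over all genes tested, 13.2% higher and 14.5% lower). Gpt2 fell by 0.96 on the log2 scale (adjusted p = 9.27e-08), from 187 ± 8.98 to 95.4 ± 12.04 CPM, while the mTOR inhibitor gene Ddit4 rose by 0.58 and the cystine transporter gene Slc7a11 by 0.38. With OA, BBR raised 0 of the 32 and lowered 1, Slc7a11 (-0.25, adjusted p = 0.0258). The summed bile duct markers were 589.8 to 722 CPM in control cells and 242 to 272 CPM in OA cells, with 1 of the 4 tested called higher and 1 lower. Hepatocyte markers were 37541 to 38959 CPM and 43426 to 44723 CPM (5 of 7 higher, 1 lower), and of 10 macrophage markers tested 3 were higher and 6 lower. The part of these in the OA results was not tested.

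Upstream of ATF4, 18 genes of the eIF2alpha kinases, the phosphatase and the exchange factor eIF2B were tested. OA without BBR raised 7 and lowered 2 (over all genes tested, 21.3% higher and 21.5% lower). The larger changes were in Eif2b3 (0.58), Eif2s2 (0.51) and Eif2s1, which encodes eIF2alpha itself (0.45). The 7 held none of the kinase genes. With BBR, OA raised 8 and lowered 4 (over all genes tested, 20.1% higher and 18.8% lower). Among the 4 lower were Impact (-0.45), Eif2ak4 (-0.31) and Eif2ak3 (-0.30). BBR without OA raised 3 of the 18 and lowered 1, Eif2b4, where 13.2% of all genes tested were called higher and 14.5% lower. The 3 higher included Impact, whose product restrains the kinase GCN2 (0.63, adjusted p = 3.64e-06). The others were Eif2ak3, the gene for PERK (0.39, adjusted p = 0.00100), and Eif2ak4, the gene for GCN2 (0.25, adjusted p = 0.00513). With OA, BBR raised Impact (0.32, adjusted p = 0.0397) and lowered Eif2b2 (-0.21). The interaction called 0 of the 18 genes in either direction.

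A list of genes linked to CHOP had 10 genes of ER oxidation and apoptosis tested. Whether CHOP controlled them in these cells was not tested. OA raised 5 and lowered 1 without BBR (over all genes tested, 21.3% higher and 21.5% lower). With BBR, it raised 3 and lowered 3 of the 10 (over all genes tested, 20.1% higher and 18.8% lower). The largest change was that of Pmaip1, the gene for the apoptosis inducer NOXA, from 4.14 ± 0.956 to 13.5 ± 1.57 CPM without BBR (1.72, adjusted p = 5.55e-07) and from 4.39 ± 0.554 to 17.2 ± 1.30 CPM with it (1.97, adjusted p = 1.30e-08). BBR without OA raised 3 and lowered 0, where 13.2% of all genes tested were called higher and 14.5% lower. The 3 were Bcl2l11, the gene for BIM (0.63), the ER oxidase gene Ero1l (0.60) and Gadd45a (0.31). With OA, BBR moved none of the 10 past the threshold.

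The chaperone arm of the ER response, 20 genes controlled by ATF6 and XBP1, had more genes lower than higher under OA without BBR. There, 21.3% of all genes tested were called higher and 21.5% lower. Of the 20, OA without BBR raised 2 and lowered 8, with a median of -0.091. Herpud1, a factor of ER-associated degradation, rose by 0.82 (adjusted p = 1.50e-07), whereas Pdia4 fell by 0.43 and Hyou1 by 0.38 on the log2 scale. With BBR, OA raised 4 and lowered 4, where 20.1% of all genes tested were called higher and 18.8% lower. BBR itself raised 1 and lowered 2 without OA, and raised 1, Herpud1 (0.26), and lowered 0 with OA. For BBR the shares over all genes tested were 13.2% higher and 14.5% lower without OA, and 1.95% and 2.63% with it. A further list held 13 stress genes, most of them for mitochondrial chaperones or proteases. OA without BBR raised 6 and lowered 2 of the 13, led by Lonp1 (0.31), Hspa9 (0.28) and Hspd1 (0.27). With BBR, OA raised 7 and lowered 1. BBR without OA raised 1 of the 13, Hspa1a (0.68, adjusted p = 0.00150), whose product is not mitochondrial, and lowered 4. With OA, 0 of the 13 were called for BBR.

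Partners and relatives of the 10 genes moved in both directions, as did all genes tested. The list of other bZIP factor genes had 30 tested, and Cebpz among them shares only the C/EBP name and has no bZIP domain. OA without BBR raised 14 of the 30, Cebpz included (0.16), and lowered 6 (over all genes tested, 21.3% higher and 21.5% lower). Among the bZIP genes called were Creb3l3, a liver factor of lipid metabolism (0.77), Fosl1 (1.01) and the clock-controlled Tef (-1.38). BBR without OA raised 7 and lowered 6, Cebpz included (-0.14), where 13.2% of all genes tested were called higher and 14.5% lower. BBR raised Creb3l3 both without OA (0.85, adjusted p = 2.31e-08) and with it (0.74, adjusted p = 2.52e-06). Cebpa, the main C/EBP gene of hepatocytes, fell with BBR alone by 0.50 and with OA alone by 0.44 on the log2 scale, and was not called when either agent was added to the other (-0.11 for BBR, -0.046 for OA, interaction 0.41, adjusted p = 0.00832). With OA, BBR raised 2 and lowered 1 of 29 tested, where 1.95% of all genes tested were called higher and 2.63% lower. A list of other Tribbles, C/EBP and phosphatase 1 genes shared Cebpa, Cebpd and Cebpg with the bZIP list and Ppp1r15b with the eIF2alpha list. Of its genes, OA raised 3 of 6 (Cebpd, Cebpg and Ppp1r15b) and lowered 1 (Cebpa). BBR without OA raised 1 of 7 and lowered 2 (Cebpa and Cebpd). The 1 higher gene was Trib2 (1.03, SE 0.36, adjusted p = 0.0408), whose call was lost with DESeq2, with no filter on low counts, in 1 fit over all libraries, and without control replicate 1 or 3 or any 1 of the BBR libraries.

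**Figure D5:**
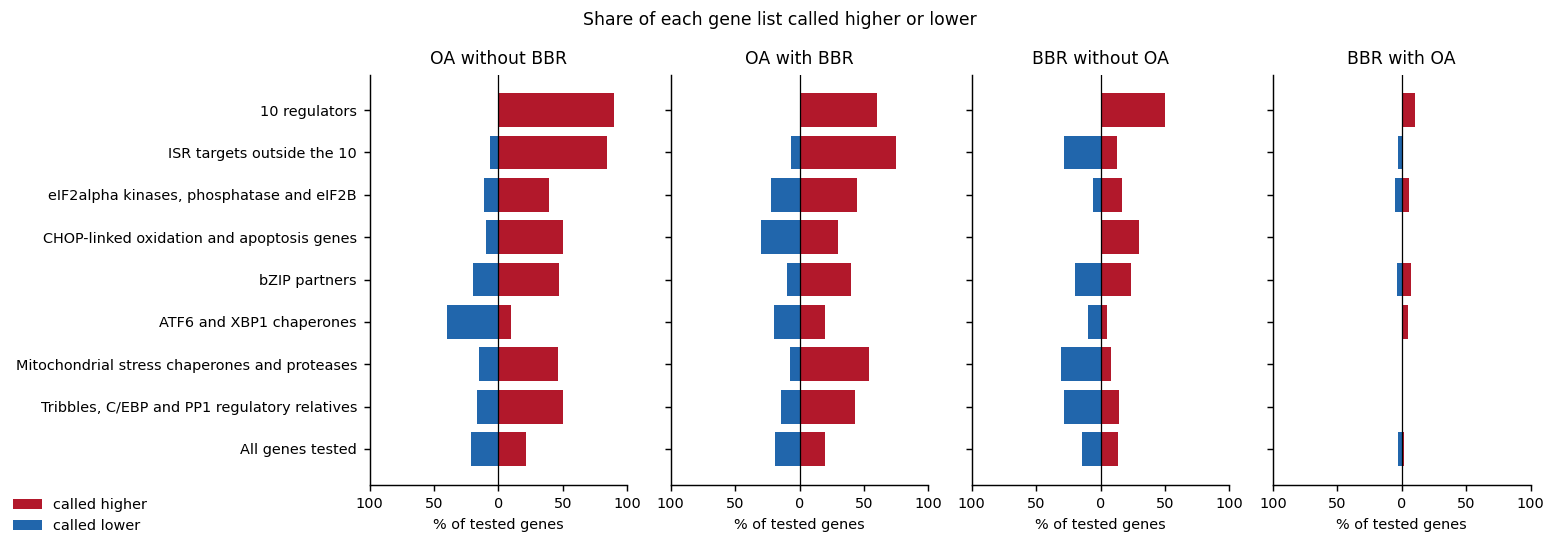
Share of the tested genes of 7 lists called higher (right of 0) or lower (left of 0) in the 4 comparisons, with the 10 regulators at the top and all genes tested at the bottom. Some genes are on several lists. For OA without BBR the stress response targets (27 of 32 higher) lie near the 10 regulators (9 of 10), and more ER chaperones were lower (8 of 20) than higher (2).

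The genes whose profiles over the 12 libraries were closest to the regulators were found among 9705 genes of at least 5 CPM on average, by the root mean square difference of gene-centred log2(CPM + 1) values. For Chac1 these were Mthfd2 (0.083) and Psat1 (0.13), both enzymes of the serine and folate pathways on the target list. Atf4 was closest to Kpna2 (0.041) and Eef1e1 (0.045), and Atf5 to Desi2 (0.044) and Stbd1 (0.055). Atf3 was closest to Acadl (0.093), a mitochondrial fatty acid dehydrogenase gene, and C2cd2l (0.13). Vldlr was closest to Bnip3 (0.13) and Slc16a3 (0.14), a mitophagy receptor and a lactate exporter. For Trib3 they were Serinc3 and Cln8, for Ppp1r15a Aldoa and Ostf1, and for Nupr1 Anapc15 and Spats2l, with differences of 0.063 to 0.11. Cebpb had no close neighbour, the nearest being Siah2 at 0.26 and Zfp867 at 0.28.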

How the data were processed

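Poly(A)-selected RNA from 12 hepatocyte cultures was sequenced on Illumina instruments. The authors deposited, for each library, an estimated count and an FPKM value per gene. The genome build is mm10 in the submitters' processing notes, and the aligner, the counter, the annotation and the strand setting are not given in the sources used here. Of 22471 features, 21911 had Ensembl identifiers and 560 were assembled loci, and 2862 had estimated counts that were not whole. FPKM per the file headers was used only to order levels between genes.

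Estimated counts were rounded and tested with edgeR 4.0.16 and limma 3.58.1 in R 4.3.3 (TMM scaling, filterByExpr with a minimum count of 10, two-sided quasi-likelihood F test). Each comparison of groups used its 6 libraries and the interaction used 12. A gene was called at a Benjamini-Hochberg adjusted p under 0.05 over all genes tested. The SE is the absolute log2 fold change divided by the square root of the F statistic. Intervals are 95% from this SE and t quantiles. The script was tested on simulated data. Alternatives were RLE and upper quartile scaling, no filter, DESeq2 1.42.0, a 2-fold limit, the replicate number as a block, 1 fit over all libraries and leaving out each library.

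The 10 genes and the gene lists were chosen with earlier results of these data known. All 10 were named. From a list, up to 3 called genes with the largest change were named, if they reached 5 CPM and the groups did not overlap. Where a count of calls was small, further genes behind it were named after their values were seen, and Cebpz was named because it has no bZIP domain. The 2 closest profiles were named for each gene except Ddit3, and that result and 1 gene list are not reported here. Replicates differed by more than counting noise (chi-square per degree of freedom 2.76 to 7.62), so each library was counted. Same-numbered libraries of the OA and control groups deviated together from their group means (correlations 0.155, 0.105 and 0.201). Those of the other comparisons did so too (correlations 0.0566 to 0.205). The tests reported did not pair the libraries, and the replicate number entered only as the block among the alternatives. Any pairing by number rests on these correlations, since the labels give numbers alone. Positions are from GENCODE M21 and promoter windows from RefSeq. Floors cover counting error only.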

Additional observations from a re-analysis of the deposited data

Results flagged for a closer look

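By the interaction term of the edgeR fit, a different effect of BBR in OA medium and control medium was called for 3 of the 10 genes. Of all 12742 genes tested, 6.87% were called higher and 5.31% lower. The call for Vldlr held in all 17 alternative fits, while that for Ppp1r15a was lost in 3 and that for Atf5 in 10. The difference was -1.05 on the log2 scale for Vldlr (95% interval -1.32 to -0.79), -0.36 for Ppp1r15a (95% interval -0.56 to -0.15) and 0.20 for Atf5 (95% interval 0.074 to 0.34).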

How the results depend on the processing

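The 2-fold limit aside, 43 of 50 results on the 10 genes kept their call in every alternative and no called value reversed. Over 650 alternative values, 13 lost a call and 13 gained one. Besides those given in the report, Trib3 passed in the interaction with RLE or upper quartile scaling, DESeq2, or without OA replicate 3, BBR replicate 1 or BBR+OA replicate 2, and Ddit3 without BBR+OA replicate 2. With RLE scaling 0 of the 10 genes had a higher BBR effect in OA. With a 2-fold limit the genes called higher were 1 (BBR), 0 (BBR with OA), 2 (OA) and 1 (OA with BBR), and the interaction called 0 higher and 1 lower. Over all genes that limit left 276, 31, 617, 550 and 161 calls in the same order. With 1 library left out, calls over all genes ranged from 216 to 632 for BBR with OA, lowest without BBR+OA replicate 3, and from 1027 to 1679 for the interaction, lowest without OA replicate 2 or BBR replicate 2 (1028), and the interaction called 0 to 1 of the 10 genes higher and 1 to 4 lower.

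The replicate block changed no call on the 10 genes in the OA comparisons. In every comparison of groups the replicates were known to share only a number (correlations 0.0566 to 0.205), although each library correlated best with its own number. The block raised the calls for BBR with OA from 563 to 1333 and the genes lower in the interaction from 2 to 4 of the 10, with Trib3 (adjusted p = 0.0190) and Ddit3 (adjusted p = 0.0324) added, and Atf4 passed for BBR without OA (adjusted p = 0.0382). Of 1120 alternative values of list counts, 246 lay outside 1.5 times the main count. With 3 libraries per group, the intervals for Cebpb were the widest of the 10 genes (-0.41 to 0.63 for OA without BBR).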
